A study of Mus musculus with 2 samples.

Results

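The insulin-like growth factor (IGF) axis was followed in embryonic mouse ureters cultured with and without NOGGIN, through 10 genes: the ligands Igf1 and Igf2, the receptor Igf1r, the binding proteins Igfbp2, Igfbp3, Igfbp4 and Igfbp5, and the insulin receptor substrates Irs1, Irs2 and Irs4. They were read by every non-control probe that carries one of these gene names in the scanner files, 18 of 39429 probes, and all 18 were bright enough to be kept. The genes were chosen by the ratio of the conditions at 1 probe of Irs4, which differed strongly, so every ratio of these genes is given as a description without a test.

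Ureters of wild-type NMRI embryos of mixed sex were taken at E13.75 (embryonic day) and kept for 18 h on membranes, either in medium with 10 µg/ml NOGGIN, an extracellular antagonist of bone morphogenetic protein (BMP) signalling, or in medium without it. Labelled copies of 200 ng total RNA were read on 2 two-colour arrays, each holding 1 control and 1 NOGGIN sample with the dyes exchanged between the arrays (n = 2 per condition). Neither the number of ureters pooled nor separate litters for the pairs are given in the labels, so the spread between arrays may be technical. In whole ureters, fewer cells of a type and less RNA per cell cannot be told apart.

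IGF1 and IGF2 are secreted growth factors that bind the IGF1 receptor, a tyrosine kinase, and promote growth and survival of embryonic tissue. The IGF-binding proteins hold the ligands outside the cell and can keep them from the receptor or deliver them to it. Activated IGF1 and insulin receptors phosphorylate the insulin receptor substrates, docking proteins that recruit PI3-kinase and other effectors. Most tissues use IRS1 and IRS2, while Irs4, an X-linked gene, has a narrower range of expression.

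The probes are 60 bases long, and the results turned on probes of the same gene that read different parts of its transcripts. The first 30 bases of 6 probes are shown 5′ to 3′ as the files list them, in lower case throughout, with the transcript position at which the probe starts. They are the pair of Irs4 probes, which disagreed, the pair of Igfbp3 probes, which did not, and 2 probes for different transcript variants of Igf1.
Irs4, start 2816: tgaatgttgaattcggggtgcccttcccaa
Irs4, start 5618: aagatttgagggaaaatgctgtgttatttt
Igfbp3, start 1389: ggagaacctggcatatttggtttctgaatt
Igfbp3, start 1882: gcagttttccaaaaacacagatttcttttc
Igf1, start 909: agtccaataacattacaaagatgggcattt
Igf1, start 1027: aaccattaaaaacatgccaccaagaccttc

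In mouse build mm9 the Irs4 probes lie on the minus strand of the X chromosome, the first at chrX:138156885-138156944 and the second at chrX:138146111-138146170. They are 2802 bases apart along the transcript and 10774 bases apart along the genome, so 7972 bases between them are not part of that transcript. The longest run of bases they share is 5, and the longest run shared with a probe of another gene is 13 for the first and 14 for the second. Exon and UTR annotation of mm9 was not used here.

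Every signed value is a log2 ratio, NOGGIN over control, with the channels and samples assigned by the dyes in the labels. This direction is not settled. By the dyes, Id1, a transcription regulator that BMP signalling induces, had 2.21 on array 1 and 2.08 on array 2, so it was higher in the channel labelled NOGGIN. Of 6 BMP response genes looked up for the direction, Id1 among them, 6 were above 0 on both arrays. In the authors' deposited table, whose titles set NOGGIN against control, Id1 has signed fold changes of -4.65 and -4.53, and the Irs4 probe that starts at 5618 has 7.85 and 7.01. Read in the order of those titles, Id1 would be lower and this Irs4 probe higher with NOGGIN. With the dyes the other way round all signs given here turn and the sizes remain; the Irs4 probe at 5618 lay opposite to Id1 under either reading.

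A probe was kept where, on each array, most of its spots rose well above background in either channel, which left 22316 genes or unnamed features. Across these features, which are not independent replicates, array 1 and array 2 correlated at 0.179 (Pearson) and -0.069 (Spearman) in their ratios, so ranks did not agree between the arrays. All 15 markers of ureteric mesenchyme, smooth muscle and urothelium that were looked up were kept. A gene was counted as past 1.5-fold where its brightest probe had a log2 ratio of at least 0.585 in size in the same direction on both arrays. Of all features, 2.19% passed this rule in either direction, 0.941% as higher and 1.25% as lower in the channel labelled NOGGIN. Of the 10 genes, Irs4 and Irs1 passed as lower, 0 as higher and 8 as neither, a count the choice of the set already used. Irs1 was just inside the rule, with -0.59 on the array of its smaller ratio, and Igfbp2 just outside it, with -0.48.

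**Figure D1:**
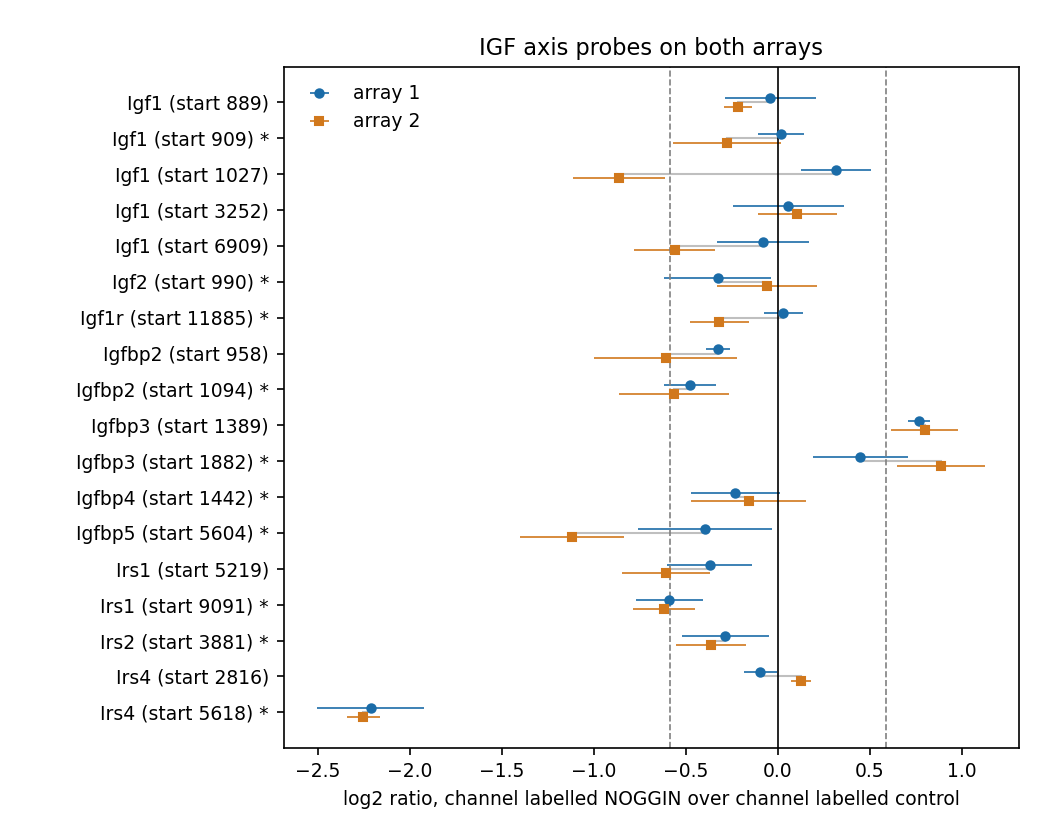
Log2 ratio of each of the 18 probes on array 1 (circles) and array 2 (squares), NOGGIN over control by the dye labels; bars are the SD over the spots of the probe on that array, dashed lines mark 1.5-fold, and an asterisk marks the brightest probe of a gene. The Irs4 probe that starts at 5618 lies near -2.2 on both arrays, the other Irs4 probe lies near 0, and both Igfbp3 probes lie to the right of 0.

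Irs4 gave the largest difference of the set, and only in 1 of its 2 probes. The probe that starts at 5618 had normalised log2 intensities of 8.66 and 8.82 in the samples labelled control on arrays 1 and 2, and of 6.44 and 6.57 in those labelled NOGGIN. The control samples were the high ones and the conditions did not overlap. The log2 ratios were -2.21 and -2.25, or -2.23 ± 0.03 (SD, n = 2), a 4.70-fold difference. The 4 spots of the probe ran from -2.52 to -1.89 on array 1 and from -2.37 to -2.16 on array 2. Spots on the same array are repeated readings of the same samples, not replicates of a condition.

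This probe was dim in the channel labelled NOGGIN. Its mean spot signal there was 1.84 times the local background on array 1, where the NOGGIN sample carried the green dye, and 1.17 times on array 2, where it carried the red dye. It was called well above background in all spots on array 1 and in 0 on array 2. In the channel labelled control the signal was 4.50 and 17.3 times the background. On array 2 the NOGGIN reading is therefore only a bound. Measured against the lowest level of a probe well above background in that channel, the difference was 4.28-fold, and a higher limit would make it smaller. The SD between the arrays leaves this out, and the scanner's own processed signals gave -4.21 for the same probe.

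The other Irs4 probe, which starts at 2816, read no such difference. Its log2 intensities were 7.36 and 7.20 in the samples labelled control and 7.27 and 7.32 in those labelled NOGGIN, and it was well above background in all 4 readings. It was dim too, in both channels. Its mean spot signal was 4.64 and 2.12 times the local background in the channel labelled NOGGIN on arrays 1 and 2. In the channel labelled control it was 1.90 and 4.69 times. Such low signals limit what its ratios can show. The conditions overlapped, and the log2 ratios of -0.10 and 0.13 went opposite ways, with a mean of 0.02 ± 0.16 (SD, n = 2). The ratio of the probe at 5618 minus that of the probe at 2816 was therefore -2.12 on array 1 on the log2 scale, and -2.38 as measured on array 2, where the NOGGIN reading is a bound. Which of them follows the Irs4 message was not tested.

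**Figure D2:**
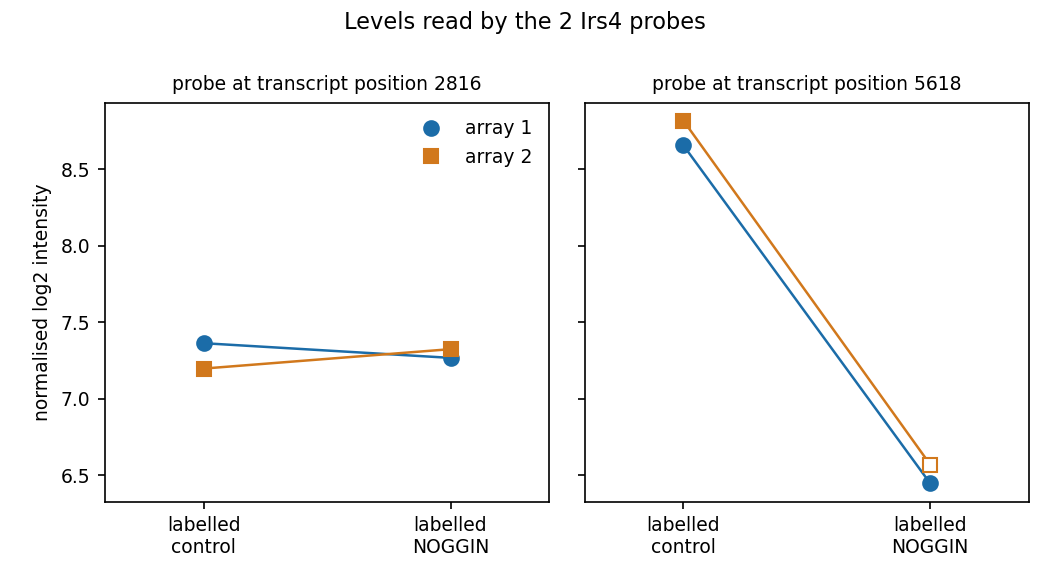
Normalised log2 intensity of the 2 Irs4 probes in the samples labelled control and NOGGIN, joined within array 1 (circles) and array 2 (squares); an open symbol is a reading not well above background. The probe at 5618 lies between 8.66 and 8.82 in control samples and between 6.44 and 6.57 in NOGGIN samples, and the probe at 2816 stays between 7.20 and 7.36.

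The distance between these probes was set beside that of other genes as a description, since the set was chosen by the probe that makes it large. Of 5741 genes with at least 2 kept probes, the median distance between the highest and the lowest probe mean was 0.15 on the log2 scale. Irs4 had the largest, 2.25, and the next gene had 1.68. Of 154 such genes with at least 1 probe past 1.5-fold, 29 also had a probe within 0.15 of 0. The other genes of the set with several probes had distances of 0.05 for Igfbp2, 0.11 for Igfbp3, 0.12 for Irs1 and 0.40 for Igf1.

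**Figure D3:**
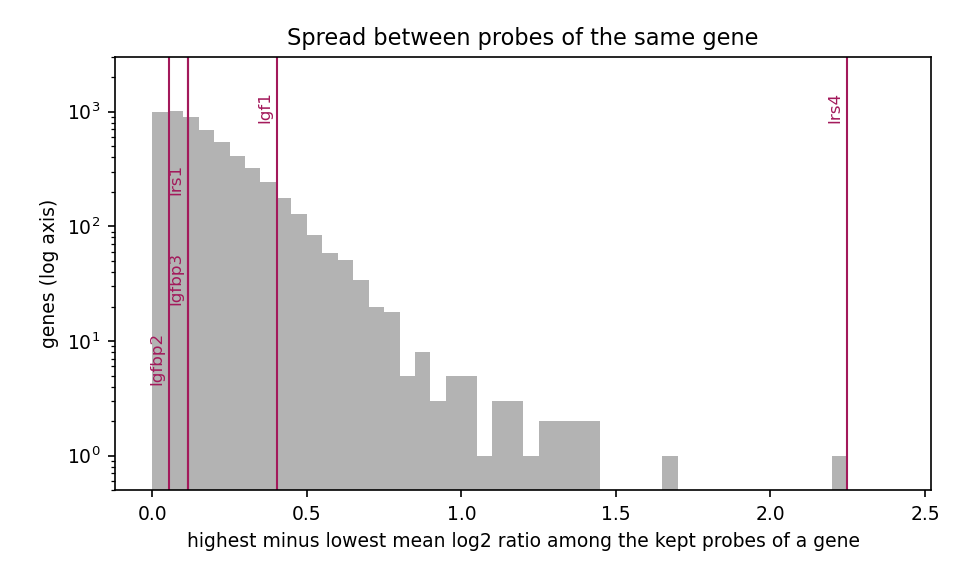
Number of genes (log axis) by the distance between the highest and the lowest mean log2 ratio among their kept probes, for 5741 genes with several; vertical lines mark the 5 members with several probes. Irs4, at 2.25, stands alone beyond the next gene at 1.68.

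Of 1730 other kept probes whose mean log2 intensity lay within 0.25 of that Irs4 probe, 38 (2.20%) passed 1.5-fold on both arrays, near the 1.92% of all kept probes. By the distance between their pairs of log2 ratios on the 2 arrays, the genes nearest to Irs4 were Prmt8 (0.11), the cadherin gene Cdh3 (0.25), Syt13 (0.34), Necab1 (0.35) and the BMP ligand gene Bmp2 (0.36). Prmt8, like the Irs4 probe, was well above background in only 3 of 4 readings, and every distance uses the array 2 value of Irs4, which is a bound. With 2 arrays this likeness says only that the sizes were similar.

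The other substrates, Irs1 and Irs2, differed less and lay below 0 on both arrays. Irs1 had log2 intensities of 15.08 and 14.94 in the samples labelled control and 14.49 and 14.32 in those labelled NOGGIN by its brightest probe (chr1:82229692-82229751). The conditions did not overlap. How often this holds among all features was not counted. The Irs1 ratios were -0.59 and -0.62, or -0.60 ± 0.02 (SD, n = 2), a 1.52-fold difference just past the rule. Over 11 processing settings this probe ran from -0.65 to -0.53 and passed in 6, failing with median centring, scale normalization, spot medians, processed signals and the authors' deposited values. Its other probe, 3872 bases nearer the start of the transcript, had -0.37 and -0.61 and did not pass. Irs2, read by a probe at chr8:11004490-11004549, had 13.39 and 13.53 in control samples and 13.10 and 13.17 in NOGGIN samples. Its ratios were -0.28 and -0.36, a mean of -0.32 ± 0.06 (SD, n = 2) that is 1.25-fold.

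Igfbp3, which encodes the main carrier of IGFs in blood, was the only gene of the set above 0 on both arrays by its brightest probe. That probe (chr11:7106594-7106653) had log2 intensities of 13.21 and 13.33 in control samples and 13.66 and 14.22 in NOGGIN samples. The NOGGIN samples were the high ones, with ratios of 0.45 and 0.89, or 0.67 ± 0.31 (SD, n = 2), a 1.59-fold mean that failed the rule on array 1. The dimmer probe, designed on an Ensembl transcript (chr11:7107949-7108008), had 7.35 and 7.62 in control samples and 8.12 and 8.42 in NOGGIN samples. Its ratios were 0.77 and 0.80, so it passed as higher, against 0.85% of all kept probes. In the channel labelled control its signal was only 1.86 times the local background on array 1 and 8.30 times on array 2. Over 11 processing settings its mean ran from 0.73 to 1.24, and it passed in all 11, so its size is less certain than its side. Igfbp3 therefore lay on the side of Id1, opposite to Irs4, whichever way the dyes are read.

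The neighbours Igfbp2 and Igfbp5, whose probes lie 5957 bases apart on chromosome 1 and on opposite strands, were both below 0. Igfbp2 had 14.02 and 14.09 in control samples and 13.54 and 13.52 in NOGGIN samples by its brightest probe (chr1:72898813-72898872). Its ratios were -0.48 and -0.57, or -0.52 ± 0.06 (SD, n = 2), and those of the other probe were -0.33 and -0.61; in both, the conditions did not overlap. Igfbp5 (chr1:72904829-72904888) had 16.76 and 17.12 in control samples against 16.37 and 16.01 in NOGGIN samples. Its ratios of -0.39 and -1.12 gave -0.76 ± 0.51 (SD, n = 2), the second largest mean in size by brightest probe. Array 2 was well ahead of array 1, and Igfbp5 did not pass the rule. Igfbp4 (chr11:98913334-98913393), with 13.27 and 13.11 against 13.03 and 12.95, had -0.20 ± 0.05 (SD, n = 2), a 1.14-fold difference.

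The ligands and the receptor differed little. Igf2, an imprinted gene expressed from the paternal copy, had 13.14 and 12.99 in control samples and 12.81 and 12.93 in NOGGIN samples (probe at chr7:149839661-149839720). Its ratios were -0.33 and -0.06, a mean of -0.19 ± 0.19 (SD, n = 2) that is about the size of the spread. Igf1r (chr7:75378461-75378520) had 14.08 and 14.19 against 14.11 and 13.87; the signs of its ratios, 0.03 and -0.32, differed between the arrays.

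The 5 probes of Igf1 gave small means, from -0.32 to 0.08. The brightest, at chr10:87393581-87393640, had 12.71 and 12.95 in control samples and 12.72 and 12.67 in NOGGIN samples, so the conditions overlapped, and its ratios were 0.02 and -0.28. It shares 40 bases with the probe that starts at 889, whose ratios were -0.04 and -0.22, so these are not independent readings. The probe designed on transcript variant 2, 15046 bases upstream at chr10:87378456-87378515, had 0.32 on array 1 and -0.86 on array 2, the largest disagreement between arrays in the set. The probe that starts at 6909 had -0.08 and -0.56, and the one at 3252 had 0.06 and 0.11.

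**Figure D4:**
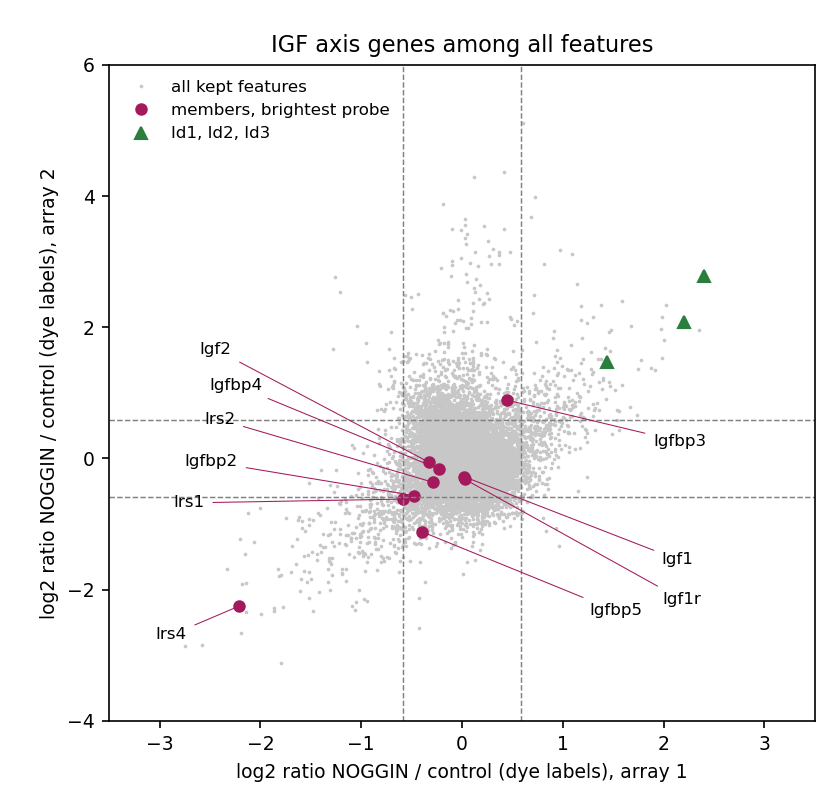
Log2 ratio on array 1 against array 2 for all kept features (grey), with the brightest probe of each of the 10 genes and Id1, Id2 and Id3 marked; dashed lines are 1.5-fold, and 1 feature lies outside the axes. Irs4 lies at -2.21 and -2.25, opposite to the Id genes, Igfbp3 lies on their side, Irs1 (-0.59 and -0.62) and Igfbp5 (-0.39 and -1.12) lie below the centre of the cloud, and the other 6 genes lie nearer to it.

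By brightest probe, 7 of the 10 genes were below 0 on both arrays, 1 was above 0 on both and 2 had opposite signs; of all features 23.3% were below 0 on both arrays and 20.4% above. The median over the 10 genes was -0.26, against -0.01 over all features. By probe, 2 of 18 passed 1.5-fold as lower and 1 as higher, against 1.07% and 0.85% of all kept probes; 11 were below 0 on both arrays and 3 above, against 22.1% and 21.2%. Of the smooth muscle markers, 4 of 5 were below 0 on both arrays, and Cnn1 and Tagln passed 1.5-fold as lower. The other marker, Myocd, went the opposite way and passed as higher (1.17 and 0.94). The summed normalised intensity of the smooth muscle markers was 102814 and 155323 in the samples labelled NOGGIN against 246793 and 208224 in those labelled control. Of 6 skeletal and cardiac muscle markers, 3 passed 1.5-fold as lower, Actc1 had 0.69, Ttn had 0.25 on array 1 and -0.96 on array 2, and Myod1 was not kept; the summed intensity was 21839 and 25670 against 14412 and 21338. Of 4 ureteric mesenchyme markers Tbx18 passed as higher (0.88 and 0.65), and of 4 nephron progenitor markers Wt1 passed as lower (-0.91 and -0.89). Of the markers measured for urothelium (6), macrophages (4), endothelium (4), nerve and glia (4) and red blood cells (3), 0 passed. The part of these cell types in the values of the IGF axis was not tested.

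Beyond the 10 genes, 64 of 66 other genes of the pathway were measured, and 1 passed 1.5-fold, where 2.19% of all features did: Igfbp6, a binding protein that prefers IGF2, with -1.21 and -0.70, or -0.95 ± 0.36 (SD, n = 2). In limma's moderated test with Benjamini-Hochberg adjustment 0 of the 64 passed an adjusted p of 0.05, as did 0 of all features. At an unadjusted p under 0.05 there were 6 of the 64, 1 higher and 5 lower, against 6.04% of all features. The median log2 ratio of all 64 was -0.05. These lists were written with earlier results of the same arrays known.

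Among the other ligands, receptors and binding proteins, 1 of 10 measured was past 1.5-fold (2.19% of all features), which in a list this short is a single gene. After Igfbp6 the largest means were those of the insulin receptor-related receptor gene Insrr (-0.43 ± 0.06, SD, n = 2) and of Igf2r, which encodes a receptor that clears IGF2 (-0.35 ± 0.34). The insulin receptor gene Insr had 0.11 ± 0.02 by its brightest probe, while its other probes had means of 0.18 and -0.30. None of the 6 genes for proteases of binding proteins and their inhibitors passed 1.5-fold on both arrays, against the same 2.19%. Pappa2, a protease that cleaves IGF-binding proteins, had 0.73 ± 0.46, its relative Pappa had 0.40 ± 0.08, and Stc2, an inhibitor of that protease, had -0.65 ± 0.37.

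Of the 4 genes of the Igf2 locus and its RNA-binding proteins 0 passed, where 2.19% of all features did. H19, the maternally expressed imprinted neighbour of Igf2, had -0.14 ± 0.04 (SD, n = 2) by its brightest probe, near the value of Igf2. Its other probe had -0.25 on array 1 and 0.16 on array 2. Igf2bp1, which binds Igf2 RNA, had -0.45 ± 0.05 and Igf2bp2 had -0.10 ± 0.28. Of 13 receptor adaptors and brakes 0 passed. Grb10, an imprinted inhibitor of these receptors, had 0.59 ± 0.78, with 0.04 on array 1 and 1.14 on array 2; Socs3 had -0.42 ± 0.14 and Dok5 had 0.40 ± 0.22.

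Downstream, 0 of 25 genes of the PI3K-AKT-mTOR-FOXO chain passed 1.5-fold, and at an unadjusted p under 0.05 in limma there were also 0, against 2.19% and 6.04% of all features, which in a list of 25 leaves 0 close to the background. The largest means were those of the regulatory subunit Pik3r1 (-0.39 ± 0.01, SD, n = 2) and the transcription factor Foxo3 (-0.35 ± 0.13). Of 6 measured FOXO target genes 0 passed either, with Bcl6 at -0.40 ± 0.08, Sesn3 at -0.22 ± 0.06 and Ccng2, which encodes a cyclin, at 0.23 ± 0.03.

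**Figure D5:**
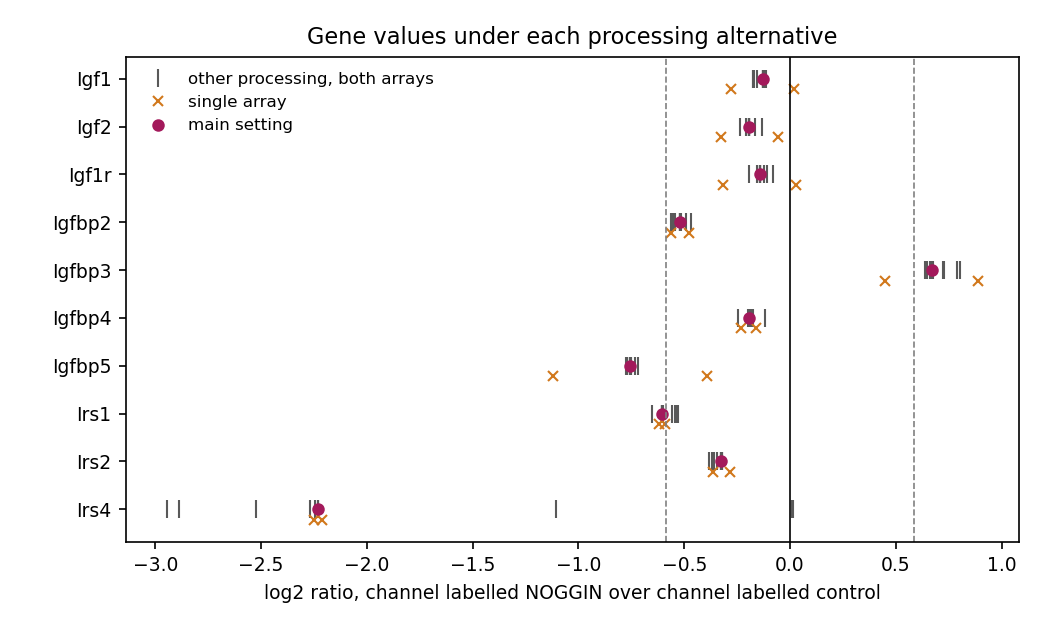
Log2 ratio of each gene in the main setting (dot), under other processing of both arrays (bars) and on single arrays (crosses); dashed lines mark 1.5-fold. Irs4 runs from -2.95 to 0.02 because some settings use or average in its other probe, and the other 9 genes stay within a narrow range except on single arrays.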

How the data were processed

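Per the file headers, the deposited scanner files hold spot intensity values from Agilent Feature Extraction (10.7.3.1, per the submitters' processing notes) on a custom mm9 design, with the log10 ratio of red over green as computed by that software. The authors' deposited table holds a signed score per probe, a linear fold change by its values (none between -1 and 1); against red over green its log2 correlated at 0.905 on array 1 and -0.952 on array 2, how the authors normalized it is unstated.

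limma 3.58.1 under R 4.3.3 corrected the background (normexp, offset 50) and normalized within arrays (loess, with controls weighted 0). Flagged spots were left out and the others of a probe averaged; no spot was saturated. Levels of single channels followed Aquantile scaling. For each gene the brightest kept probe was used; 28328 of 39429 probe names matched RefSeq accessions (assembly GRCm38.p6, names only). limma's fit, with 1 coefficient, ran over all 22316 features. Both arrays were scanned together. Named were all members, the 3 largest means of each other list with any past 1.5-fold, Id1 and the 5 genes nearest to Irs4; 1 gene of these is not reported here; Insr, the markers and single settings were chosen after their values were seen. Members and lists were chosen with earlier results of these data known. Figures used matplotlib 3.10.9.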

Additional observations from a re-analysis of the deposited data

How the results depend on the processing

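With 2-fold as the threshold, 149 features, 1 member (Irs4) and 0 other pathway genes passed, against 488, 2 and 1 at 1.5-fold. Using the scanner's processed signals, these were 840, 1 (Igfbp3) and 2. Single arrays gave 961 to 2631 features, 2 to 4 members and 3 to 7 other pathway genes. Members past 1.5-fold were 1 under median centring, scale normalization or spot medians (each time Irs4), and 1 where both channels had to be above background (Irs1). Averaging a gene's probes, or taking the authors' deposited values, gave Igfbp3 and Irs4; the latter also gave 3 other pathway genes. limma's adjusted p of 0.05 was passed by 0 features (1347 by unadjusted p), but by 129 at an offset of 10, 35 without background correction, 114 under median centring, 97 where both channels had to be above background, 22 if outlier spots stayed in, and 141 if the variance was fitted with a trend and robustly; at an adjusted p of 0.1 there were 36. What causes these differences was not tested.

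Of 110 member values under 11 alternatives that use both arrays, 97 moved by less than the SD between arrays; on array 1 alone Igf1 and Igf1r changed sign, to 0.02 and 0.03. Irs4 turned to 0.008 on processed signals and to 0.015 when both channels were required, since only its probe at 2816 was left or was the brighter, and averaged over its probes it was -1.11. The probe at 5618 ran from -4.21 to -2.23 over settings with both arrays. Its low signal over background limits that value. Each ratio pairs the samples of 1 array, so the replicate number is already a block.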
